A study of Mus musculus with 4 samples.

Results

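The transcripts followed here encode gp130, its partner receptors and their ligands. gp130, the product of Il6st, is the signal-transducing receptor chain shared by the interleukin-6 family of cytokines. The 9 genes were chosen by name and not by their values from the 48897 genes of the deposited table. Earlier results of these data were known when they were chosen. They are the 6 receptor genes Il6st, Lifr, Osmr, Il6ra, Il11ra1 and Cntfr and the 3 ligand genes Lif, Cntf and Clcf1. All 9 were in the table, and 8 passed the filter on low counts, Lif being the exception.

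Several cytokines of this family first bind a receptor that recognises the ligand, and the complex then recruits gp130 alone or gp130 together with Lifr. For oncostatin M, gp130 pairs with Osmr. The Janus kinases held by these chains phosphorylate them and activate STAT proteins, chiefly STAT3, whose target Socs3 encodes a feedback inhibitor that binds gp130. In the retina, LIF is made by a subset of Müller glia when photoreceptors are stressed, CNTF prolongs photoreceptor survival, and Müller glia answer both ligands with STAT3 activation and a rise in the filament gene Gfap.

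The study asked how the retinal transcriptome changes when the neuronal microRNA miR-124-3p is inhibited. Wild-type C57BL/6 mice (C57BL/6J in the study's methods) were injected into the vitreous on postnatal day 3 and their retinas were collected 6 days later, on postnatal day 9. Left eyes received 0.6 nmol of an antagomir, a chemically modified antisense RNA against miR-124-3p, in 1 μl (anti-miR-124 group), and right eyes received the same volume and concentration of a scrambled sequence (NC group). Each group was 2 RNA-Seq libraries of mixed whole retinas from more than a single litter. All 4 libraries came from injected eyes, no uninjected retina was analysed here, and the side of the eye and the knockdown cannot be told apart. The study's methods call the libraries of a group biological replicates, but neither they nor the labels say which animals went into which library, so the p-values measure only the spread between these libraries, which may be technical.

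A number in the deposited column names is shared by 1 left-eye and 1 right-eye library, and libraries with a shared number form pair A and pair B, so that the 4 libraries are called NC-A, anti-A, NC-B and anti-B here. Between 16317239 and 18726963 reads were counted on genes per library. Retinal neuron markers were found in every library, with none of the 13 at 0 and a summed TPM (the length-corrected share of a library, computed from counts and gene lengths) of 6205.5 to 6999. A pair of libraries stood apart. NC-A held lens transcripts, with 67229 TPM over 22 lens genes (6.72% of its total) against 178 to 240 in the other libraries. Anti-B held the highest level of 18 of 20 microglia genes, with a summed TPM of 830 against 268 to 325 elsewhere, and none of these markers was at 0 in any library. The astrocyte list of 5 genes summed to 235 TPM there and to 88.2 to 124 in the others, with 4 genes highest there. Most of this sum was Gfap, with 162 TPM in anti-B and 28.5 to 69.1 in the others. Gfap is also among the LIF and CNTF response genes below. The Müller glia list summed to 2824 TPM there and to 2179 to 2267 in the others. Of its 13 genes, 7 were highest in anti-B in TPM. In normalized counts 4 were, against 30.6% of all genes tested, so the sum does not describe most of the list. The fibroblast and sclera list of 8 genes summed to 49.0 TPM in anti-B and to 17.2 to 18.7 in the others. Of these genes, 5 were highest in anti-B in TPM, and 1 was at 0 in NC-A and 1 in NC-B. In whole retinas, a change in the number of cells of a type and a change in RNA per cell cannot be told apart.

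The sequences below show which stretch of Il6st the study amplified by RT-qPCR and where a STAT-binding motif lay in promoters of the pathway. The Il6st primer pair of the study's primer list lies in GRCm38 at chr13:112479999-112480019 (forward) and chr13:112480157-112480178 (reverse). Both primers lie within the coding sequence, in exon 4 of 17 of the transcript Il6st-203, and bound an amplicon of 180 bases.
Il6st F: ccgtgtggttacatctaccct
Il6st R: cgtggttctgttgatgacagtg

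STAT dimers bind the palindrome TTCNNNGAA, in which N is any base. RefSeq promoters (GRCm38.p6) were taken from 250 bases before to 50 bases after each start. The motif reads the same on both strands, so the gene's strand alone was searched for it. It was absent from all 15 promoters of the 8 members with an entry. It was present in 6 of 60 promoters of 48 other genes of the pathway lists, in Socs3, Gfap, Cish, Gab1 and Il31ra, against 8.30% of all 32851 promoters of this length. The matches of Socs3 at chr11:117969512-117969520 (minus strand), Gfap at chr11:102897194-102897202 (minus strand) and Cish at chr9:107296659-107296667 (plus strand, the first of 2 in this promoter) are given with their flanks, the motif in capitals, because these genes are classical outputs of the pathway. A match is a description of the letters and not of binding.
Socs3: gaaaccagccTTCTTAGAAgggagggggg
Gfap: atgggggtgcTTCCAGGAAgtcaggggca
Cish: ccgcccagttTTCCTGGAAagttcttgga

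The 4 most abundant members were receptors. In TPM, which corrects for gene length, Lifr was the highest member in every library, followed by Il6st, Il11ra1, Cntfr and Cntf. Osmr, Clcf1 and Il6ra lay between 0.327 and 4.69 TPM, and Lif was the lowest in every library. The order was the same in 3 libraries and differed in NC-B, where Clcf1 lay above Osmr. Il11ra1 and Cntfr, which are neighbours in this order, did not overlap over the 4 libraries (14.5 to 19.3 TPM against 11.8 to 13.0 TPM). Lifr and Il6st came close to each other only in anti-B (58.3 and 54.3 TPM). The level of Il6st relative to Lifr was 0.763 and 0.748 in NC-A and NC-B and 0.831 and 0.930 in anti-A and anti-B. The ratio was therefore higher in both anti-miR-124 libraries than in either NC library.

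**Figure D1:**
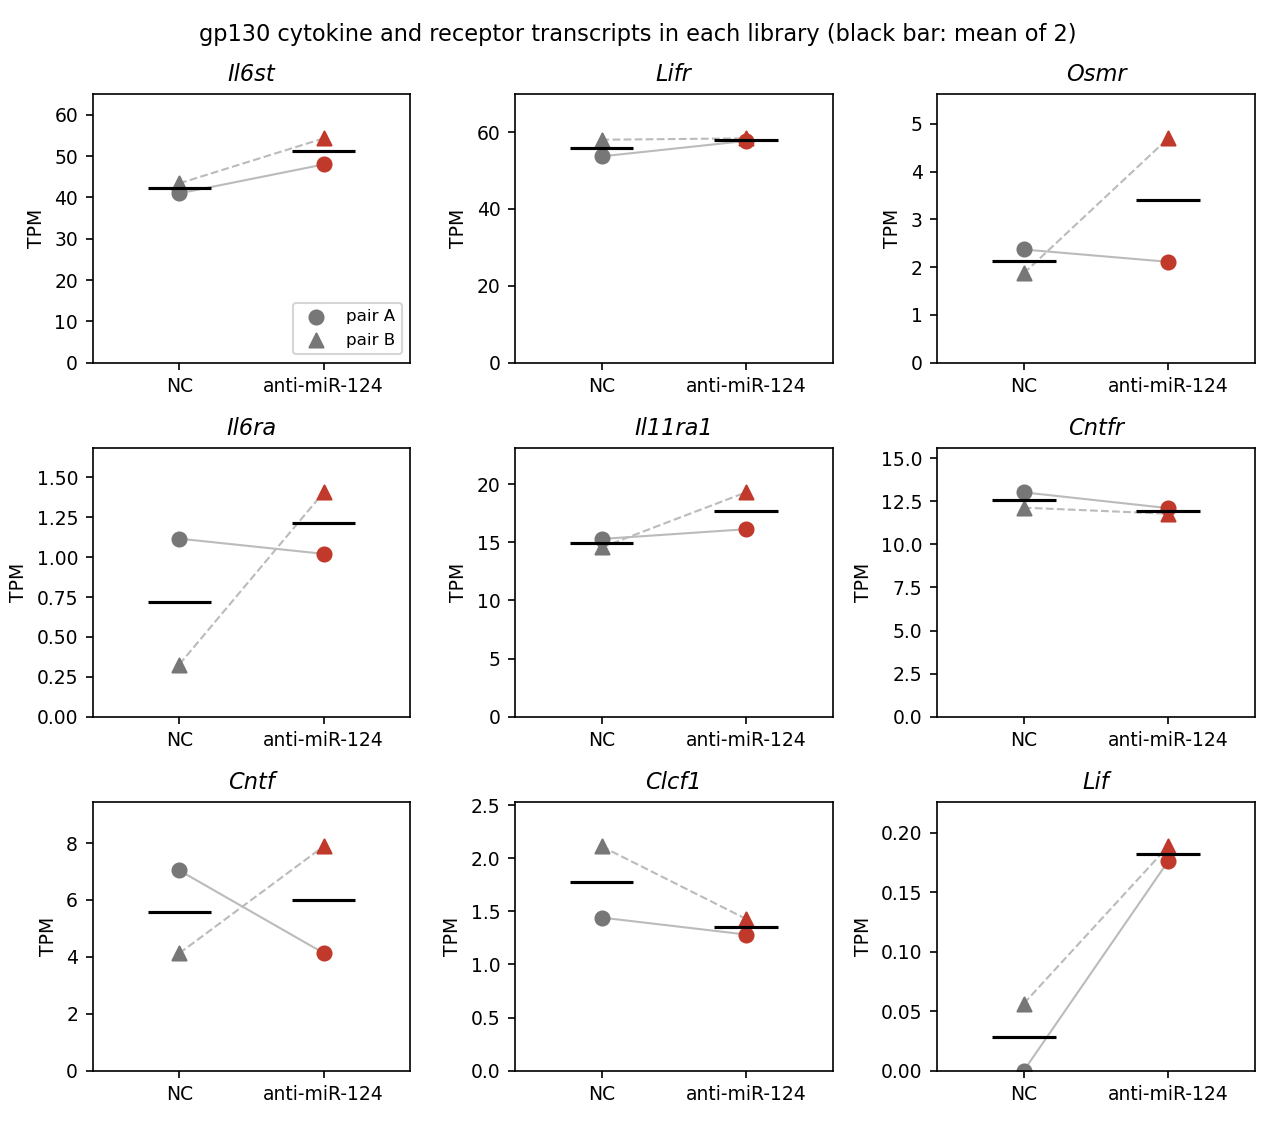
Level (TPM, linear axes from 0) of each of the 9 genes in each library of either group, with circles for pair A, triangles for pair B, lines joining the libraries that share a number and black bars for the mean of 2 libraries. In TPM the groups are separated for Il6st, Lif and Il11ra1 (higher with anti-miR-124) and narrowly for Cntfr and Clcf1 (lower), while the lines of Osmr, Il6ra and Cntf run in opposite directions in the pairs. The TPM total of NC-A includes the lens transcripts. In normalized counts the groups overlap for Il11ra1 and Cntfr, and 33.3% of all genes tested are separated. The share of all genes separated in TPM was not counted.

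No member passed the test between the groups. In edgeR's quasi-likelihood test over 17766 genes with Benjamini-Hochberg adjustment, 0 genes (0%) had an adjusted p under 0.05, the smallest being 0.487. At an unadjusted p under 0.05 there were 694 genes (3.91%), of which the anti-miR-124 group had 396 higher (2.23%) and 298 lower (1.68%), and Il6st was the single member among them. DESeq2's Wald test called 33 of 31982 genes (0.103%), none of them among the 8 members tested with edgeR. Lif was left out of this check. An exact permutation test of 2 libraries against 2 cannot give a two-sided p below 0.333. Of the 8 members tested, 6 had a log2 fold change above 0 and 2 below 0, with a median of 0.12. Of all 17766 genes tested, 8912 were above 0, and the median was 0.0007. The normalized counts of the groups did not overlap for 1 member that was higher (Il6st; 16.5% of all genes) and 1 that was lower (Clcf1; 16.8%), which together is below the 33.3% of all genes without overlap. The ratio within the pair was above 0 in both pairs for 1 member (22.7% of all genes) and below 0 in both for 2, Cntfr and Clcf1 (24% of all genes).

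Il6st, the shared signalling chain, lies at chr13:112464070-112506860 (GRCm38, plus strand), with no other annotated gene overlapping it. It had 41.0 and 43.4 TPM in NC-A and NC-B, and 48.0 and 54.3 TPM in anti-A and anti-B. Both anti-miR-124 libraries lay above both NC libraries, with means of 51.1 ± 4.5 and 42.2 ± 1.7 TPM (SD, n = 2 each). These levels rested on 1185 and 1285 counts in NC-A and NC-B, and 1365 and 1682 in anti-A and anti-B. The log2 fold change of 0.23 (standard error, SE, 0.08; 95% interval 0.04 to 0.41) is a level 1.17 times as high, with an adjusted p of 0.989 in edgeR's quasi-likelihood test. The log2 ratio of normalized counts was 0.12 in pair A against 0.33 in pair B. With a library left out in turn, the log2 fold change stayed between 0.15 (without anti-B) and 0.30 (without anti-A). Il6st was highest in anti-B, as were the summed markers of microglia, astrocytes, Müller glia, and fibroblasts and sclera. The Müller glia sum did not describe most of its list, and the part of these cells in the Il6st level was not tested. The 12 interferon-stimulated genes of a marker list had the same order of libraries as Il6st in TPM, with sums of 40.4 and 43.3 TPM in NC-A and NC-B and 131 and 245 TPM in anti-A and anti-B, and their part in its level was not tested either. Il6st was among the candidate genes that the study picked from these libraries, so its direction here is not independent evidence. By the study's account, RT-qPCR of its candidate genes on separately isolated RNA gave a trend like that of its RNA-Seq. The RT-qPCR values were not examined here.

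Lifr encodes the partner chain through which LIF, CNTF and CLCF1 signal with gp130, and lies at chr15:7090615-7197489. Its level was 53.7 and 58.0 TPM in NC-A and NC-B and 57.7 and 58.3 TPM in anti-A and anti-B. The groups overlapped, and the level was nearly the same in 3 libraries and slightly lower in NC-A. On normalized counts the log2 fold change was 0.004 (SE 0.07, adjusted p = 1.0 in edgeR's quasi-likelihood test), and the 95% interval of -0.17 to 0.18 bounds the difference. Lifr was thus the member with the narrowest interval, with 3045 to 3547 counts per library.

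Osmr encodes the receptor chain that pairs with gp130 for oncostatin M, and lies at chr15:6813568-6875249. It had 2.37 and 1.87 TPM in NC-A and NC-B and 2.11 and 4.69 TPM in anti-A and anti-B. A single library, anti-B with 155 counts, stood above the others, which had 59 to 73 counts, and the groups overlapped. The log2 fold change was 0.63 (SE 0.40, 95% interval -0.34 to 1.59, adjusted p = 0.989 in edgeR's quasi-likelihood test), with a log2 ratio of -0.27 in pair A against 1.33 in pair B. Without that library the log2 fold change was -0.048. The summed markers of microglia, astrocytes, Müller glia, and fibroblasts and sclera were highest in the same library. The Müller glia sum did not describe most of its list, and the part of these cells in the Osmr level was not tested.

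Il6ra, Il11ra1 and Cntfr recognise a ligand without signalling themselves. Il6ra, the interleukin-6 receptor at chr3:89869324-89913196, had 20 and 6 counts in NC-A and NC-B and 18 and 27 counts in anti-A and anti-B. Its groups overlapped, and NC-B was the one that stood apart, on the low side. At such counts the log2 fold change of 0.68 had a SE of 0.60 (95% interval -0.75 to 2.12, adjusted p = 0.989 in edgeR's quasi-likelihood test). Without NC-B it was 0.004. The antisense gene Gm42809 overlaps Il6ra, and the strand setting of the counting was not given in the sources used here.

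Il11ra1, the interleukin-11 receptor at chr4:41760443-41769473, had 15.3 and 14.5 TPM in NC-A and NC-B and 16.1 and 19.3 TPM in anti-A and anti-B. Anti-B was the highest, and the other 3 lay close together. The log2 fold change was 0.19 (SE 0.17, 95% interval -0.21 to 0.60, adjusted p = 0.989 in edgeR's quasi-likelihood test). Both anti-miR-124 libraries were above both NC libraries in TPM but not in normalized counts, where the ratio of pair A was -0.03 on the log2 scale. The level is uncertain because Il11ra2 is a near-identical copy that was given 0 or 1 count per library. In GENCODE M21, 6 annotated genes overlap Il11ra1, 1 of them (Galt) on the same strand. Galt does not overlap it at the deposited position, chr4:41755228-41759224. The part of overlapping genes in the counts was not tested.

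Cntfr, the receptor for CNTF at chr4:41657498-41697091, had 13.0 and 12.1 TPM in NC-A and NC-B and 12.1 and 11.8 TPM in anti-A and anti-B. NC-A was the highest, and both anti-miR-124 libraries lay narrowly below both NC libraries in TPM, whereas the groups overlapped in normalized counts. The log2 fold change was -0.13 (SE 0.10, 95% interval -0.37 to 0.11, adjusted p = 0.989 in edgeR's quasi-likelihood test). The log2 ratios were -0.21 in pair A against -0.04 in pair B, and -0.008 remained of the fitted change without NC-A.

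**Figure D2:**
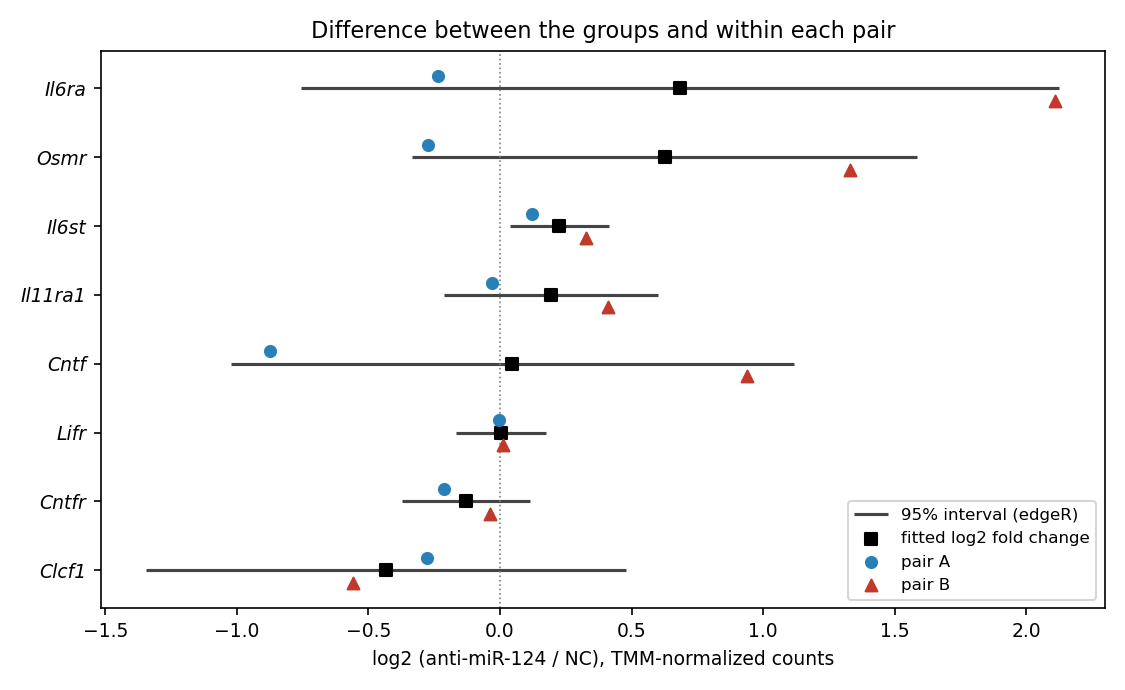
Log2 ratio of anti-miR-124 to NC (TMM-normalized counts) for the 8 members tested, with the fitted log2 fold change (square), its 95% interval from edgeR (bar) and the ratio in pair A (circle) and pair B (triangle). The interval of Il6st runs from 0.04 to 0.41 and is the one that does not cross 0, before adjustment for the number of genes tested.

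Among the ligands, Lif (leukemia inhibitory factor) at chr11:4257568-4272514 was at the edge of detection. It had 0 and 2 counts in NC-A and NC-B and 6 and 7 counts in anti-A and anti-B. The anti-miR-124 libraries were higher than both NC libraries, but Lif was below the filter and was not tested. A count of 0 among the 16317239 reads of NC-A allows up to 3 counts, or 0.184 CPM (counts scaled to the library total, without length correction). Summed over the libraries, there were 13 counts against 2, a depth-corrected ratio of 6.18 with an exact 95% interval of 1.40 to 56.4, which covers counting error only and not the spread between libraries.

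Cntf (ciliary neurotrophic factor) at chr19:12763528-12765632 had 7.04 and 4.12 TPM in NC-A and NC-B and 4.13 and 7.88 TPM in anti-A and anti-B. The high libraries were thus 1 of each group, NC-A and anti-B, and the pairs went in opposite directions with log2 ratios of -0.88 and 0.94. The fitted log2 fold change was 0.05 (SE 0.45, 95% interval -1.02 to 1.12, adjusted p = 0.998 in edgeR's quasi-likelihood test). It was -0.35 without NC-B and -0.48 without anti-B. Cntf had 26 to 54 counts per library. In GENCODE M21 it is overlapped on the same strand by Zfp91, with 4770 to 5453 counts. At the deposited positions the genes do not overlap, Zfp91 lying at chr19:12766939-12796123. Whether reads of either gene were assigned to the other was not tested. Zfp91 itself differed little (log2 fold change 0.01, SE 0.07).

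Clcf1 (cardiotrophin-like cytokine factor 1), a ligand for the CNTF receptor at chr19:4214238-4223505, had 16 and 24 counts in NC-A and NC-B and 14 and 17 in anti-A and anti-B. Both anti-miR-124 libraries were lower than both NC libraries after normalization, by a narrow margin (1.43 TPM for the highest anti-miR-124 library and 1.44 TPM for the lowest NC library). The log2 fold change was -0.43 (SE 0.38, 95% interval -1.34 to 0.48, adjusted p = 0.989 in edgeR's quasi-likelihood test). A same-strand annotated gene, AC109138.7, overlaps Clcf1.

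By the study's own measure, the log2 ratio of TPM in each pair, 3 members (Il6st, Lifr and Il11ra1) were higher in both pairs and 2 (Cntfr and Clcf1) lower in both. Of all genes tested, 32.3% were higher in both pairs and 14.8% lower in both by this measure. NC-A carries the lens transcripts in its total, and the median TPM ratio of all genes tested was 0.10 on the log2 scale in pair A against -0.0003 in pair B. With the lens genes left out of the sum, these medians were -0.002 and -0.0004, and Il6st and Lifr remained higher in both pairs, with Lifr at 0.004 in pair A. The shares of all genes tested were then 23.1% higher and 23.5% lower in both pairs. On TMM-normalized counts, Il6st was the only member higher in both pairs, and Cntfr and Clcf1 remained the ones lower in both.

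Library by library, 5 of the 8 members had their highest normalized count in anti-B, as did 30.6% of all genes tested. For 4 members, Il6ra, Cntf, Osmr and Il11ra1, the highest values were those of this library and of NC-A, as for 20.1% of all genes. The median log2 ratio of the members was -0.22 in pair A against 0.37 in pair B. These are the libraries with the lens transcripts and with the microglia markers, and the part of either in the member levels was not tested.

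The pattern of Il6st over the 4 libraries was matched most closely by genes outside the pathway. Of 12059 genes whose mean count per library reached 100, 4930451G09Rik, Akna and Mdga1 had the smallest Euclidean distance to Il6st in centred log2 CPM (0.00861, 0.0141 and 0.0213). The nearest member was Il11ra1, with a distance of 0.125 and rank 465. With 4 points per gene, the ranking describes these libraries only.

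The remaining ligands and receptors of the family were at or near the limit of detection, and 3 of 11 passed the filter. Il6 had 3 counts in anti-A and 0 in the other libraries. Osm, the oncostatin M gene, had 1 and 4 counts in NC-A and anti-B and 0 in the others, and Il11 had 2 to 4 counts per library. Il27 and Il27ra had at most 2 counts, Ctf2 had at most 2, and Il31ra had at most 6. Of those tested, Ctf1, which encodes cardiotrophin-1, had 8 to 27 counts and a log2 fold change of 0.23 (SE 0.58). Ebi3, a subunit of interleukin-27, had 18 to 27 counts and a log2 fold change of -0.12 (SE 0.38). Both had an adjusted p of 0.989 in edgeR's quasi-likelihood test.

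Of the 19 kinases, adaptors and STAT proteins that carry the signal from gp130, none passed the threshold, 15 had a log2 fold change above 0, and the median was 0.06. Of all genes tested, 8912 of 17766 were above 0. Without anti-B, 11 of the 19 were above 0, with a median of 0.06. Stat3, the main STAT protein of gp130, had 1163 and 1158 counts in NC-A and NC-B and 1106 and 2004 in anti-A and anti-B. It was high in anti-B alone, and its log2 fold change was 0.33 (SE 0.21, adjusted p = 0.989 in edgeR's quasi-likelihood test). Jak1, the kinase bound to gp130, had a log2 fold change of 0.06 (SE 0.07), and Shc1, an adaptor toward the MAP kinases, one of -0.38 (SE 0.31).

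Of 10 inhibitors of the pathway that were in the table, 7 had a log2 fold change above 0, against 8912 of all 17766 genes, and the median was 0.09. Without anti-B, 4 of the 10 were above 0, with a median of -0.04. In anti-B, 7 had their highest value, as did 30.6% of all genes. Socs3, the feedback inhibitor of gp130, had 92 and 44 counts in NC-A and NC-B and 42 and 152 in anti-A and anti-B. As for Cntf, the high libraries were 1 of each group, and the log2 ratio was -1.22 in pair A against 1.73 in pair B. The fitted log2 fold change of Socs3 was 0.38 (SE 0.60, adjusted p = 0.989 in edgeR's quasi-likelihood test). Ptprc, the CD45 phosphatase carried by microglia and other leukocytes, had 28 to 31 counts in 3 libraries and 129 in anti-B (log2 fold change 1.25, SE 0.63). Ptprt, a receptor phosphatase that acts on STAT3, had 1553 and 2165 counts in NC-A and NC-B, and 2234 and 2308 in anti-A and anti-B (log2 fold change 0.23, SE 0.11).

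Of the pathway lists, the genes known to respond to LIF or CNTF in the retina had the medians that lay furthest apart in the pairs. Of 25 listed genes, which include Osmr, Stat3 and Socs3, 23 were tested. Of these, 19 had a log2 fold change above 0, against 8912 of all 17766 genes, with a median of 0.46 and no adjusted p under 0.05. The median log2 ratio was -0.28 in pair A against 1.33 in pair B, and 18 genes had their highest value in anti-B, as did 30.6% of all genes. Without anti-B, 9 of 23 genes were above 0 and the median was -0.07. For 17 of the 23 genes (73.9%, against 20.1% of all genes) the highest values were those of NC-A and anti-B. The list was chosen with earlier results of these libraries known, and the shares are given as a description.

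Gfap, the intermediate filament of astrocytes and reactive Müller glia, had 1496 and 631 counts in NC-A and NC-B and 720 and 3764 in anti-A and anti-B. Its groups overlapped, with a log2 ratio of -1.14 in pair A against 2.52 in pair B and a fitted log2 fold change of 0.92 (SE 0.71, adjusted p = 0.989 in edgeR's quasi-likelihood test). Serpina3n, a secreted protease inhibitor of reactive glia, had 13 to 17 counts in 3 libraries and 572 in anti-B (log2 fold change 4.15, SE 1.40). A2m, the acute-phase protein alpha-2-macroglobulin, had 157 to 231 counts in 3 libraries and 941 in that library (log2 fold change 1.43, SE 0.63). The transcription factor gene Cebpd had 46 to 53 counts in 3 libraries and 195 in it (log2 fold change 1.15, SE 0.59). These 3 genes were thus high in a single library, the one in which the microglia genes C1qb (80.2 TPM against 21.3 to 30.9), Csf1r (30.5 against 13.5 to 18.1) and Cx3cr1 (22.8 against 12.6 to 14.3) were also highest, and the part of microglia in them was not tested.

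**Figure D3:**
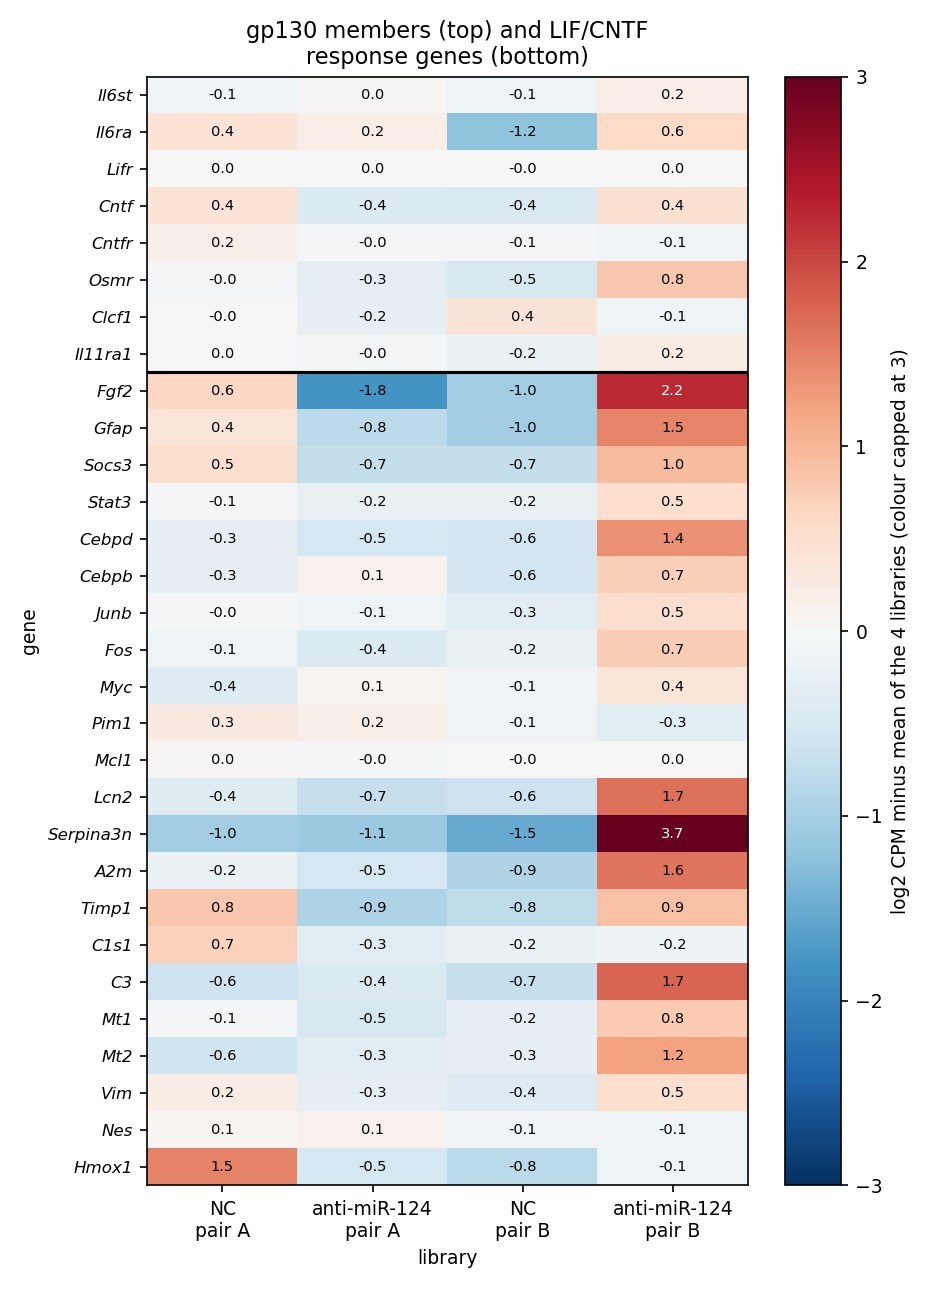
Log2 CPM of each gene in each library minus its mean over the 4 libraries (numbers in the cells, colour capped at 3), for the 8 members tested above the line and the tested LIF and CNTF response genes below it. Anti-B holds the darkest red cells, Serpina3n at 3.7 being the furthest from its mean, while Il6st and Lifr vary little.

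**Figure D4:**
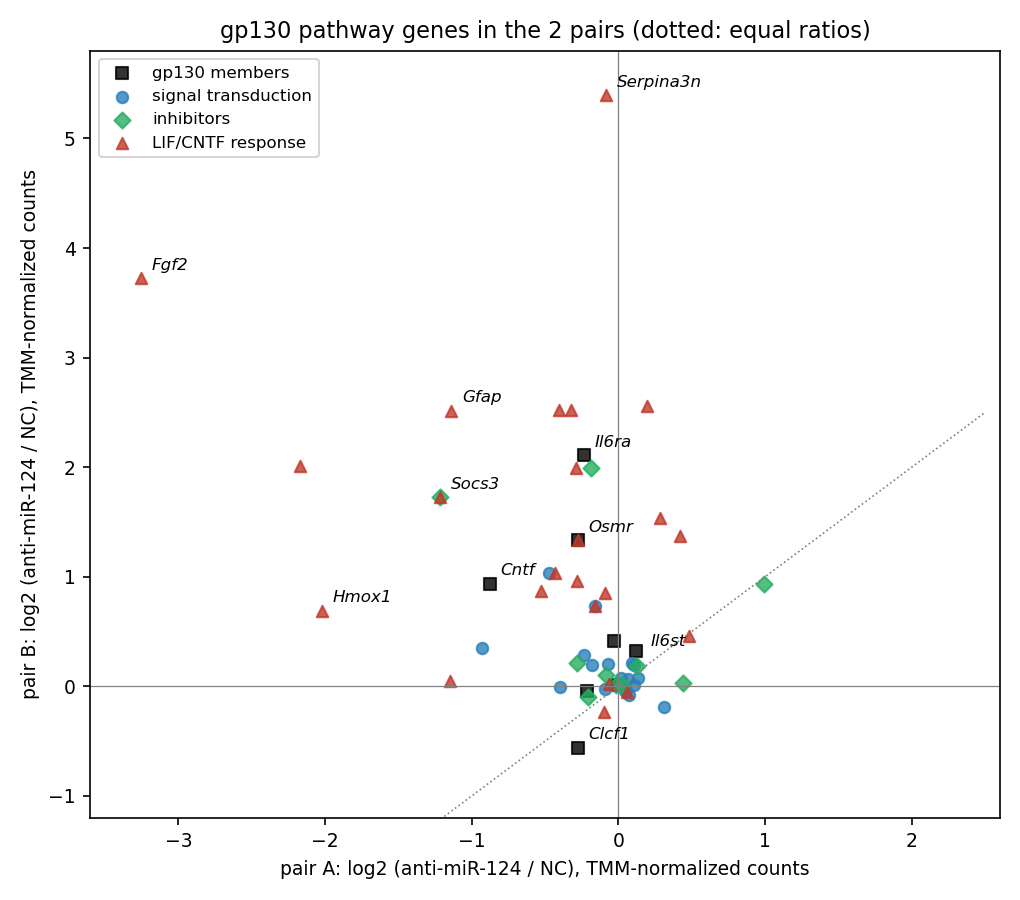
Log2 ratio of anti-miR-124 to NC in pair B (vertical axis) against pair A (horizontal axis), on TMM-normalized counts, for members (squares), signal transduction genes (circles, 1 gene not shown), inhibitors (diamonds) and response genes (triangles), with a dotted line where the pairs are equal. Socs3, Gfap, Cntf, Osmr and Il6ra lie above 0 in pair B and below 0 in pair A, whereas Il6st is above 0 in both.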

How the data were processed

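Whole-retina RNA was sequenced after preparation with a directional library kit. The authors deposited raw read counts per gene with gene lengths (bases, unit other) and positions, and 4 columns of RPKM computed from them, which were not used. The submitters' processing notes name HISAT2 and mm9, whereas 99.8% of 36837 symbols matched to RefSeq overlapped their GRCm38.p6 positions, so positions are given in GRCm38. Every row named a gene. Columns were assigned to groups by the eye they name. TPM was computed from the deposited counts and lengths. Overlaps are from GENCODE M21, whose gene bounds can differ from the deposited positions. Primer sequences are from the study's supplementary list. The sequence of mature miR-124-3p was not used here.

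Groups were compared with edgeR 4.0.16 in R 4.3.3 (quasi-likelihood test, TMM, filterByExpr with a minimum of 10 counts, two-sided, Benjamini-Hochberg over all genes, threshold 0.05, no covariate), and SEs are the fold change divided by the square root of F. The procedure was tested on simulated data. Alternatives were other normalizations, filters, DESeq2 1.42.0, a replicate block, and leaving out the lens genes or each library in turn. The members and lists were chosen with earlier results of these data known. The genes named were all members, the rest of the family, from each other list the 3 with the largest absolute log2 fold change at a mean of at least 50 counts, with Stat3, Socs3, Jak1 and Gfap, the 3 genes nearest to Il6st, 3 microglia genes and overlapping genes. The values of 2 of these genes are not reported here. Gene pairs that might share reads were named as such. No library was a duplicate of another (chi-square per degree of freedom of 3.48 or more). Python 3.11.15 with pandas 2.3.3 and matplotlib 3.10.9 was used for tables and figures.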

Additional observations from a re-analysis of the deposited data

How the results depend on the processing

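The number of genes with an adjusted p under 0.05 was 0 with edgeR's other normalizations, with a mean of at least 10 counts, without the lens genes and with a replicate block, 379 without the filter and 33 with DESeq2. It lay between 0 and 256 with a library left out in turn: 0 without NC-A, 256 without anti-A, 57 without NC-B and 12 without anti-B. None of the 8 members tested in the main fit was among them in any of these settings, and Lif was left out of this check. Without the filter, Ptprc and 9 of the 23 response genes passed, Stat3 being 1 of the 9. The share over all genes without the filter was 379 of 31982. Leaving out the filter was not the only setting in which response genes passed. At an unadjusted p under 0.05 there were 1577 genes without the filter, 354 with DESeq2, and 333 to 1893 with a library left out.

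The replicate numbers of the labels could not be matched to columns, so pairing rests on the number in the column names. It joins a left-eye and a right-eye library, and both eyes of a mouse were injected, but no source used here says that libraries with a shared number hold the same mice. Their deviations from the group means were not positively correlated (-0.16), and the numbers are read as names only. With the replicate block on this number, 0 genes had an adjusted p under 0.05 and 376 an unadjusted p under 0.05, and the log2 fold change of Il6st was 0.22 (adjusted p = 1.0 in edgeR's quasi-likelihood test). With the numbers crossed, a setting chosen after seeing the data, 160 of 17766 genes were called, among them 3 of the 23 response genes (Gfap, Serpina3n and A2m).

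With a library left out in turn, the log2 fold change ranged from -0.0059 to 0.015 for Lifr, -0.48 to 0.56 for Cntf, -0.048 to 1.08 for Osmr, 0.004 to 1.89 for Il6ra and 0.07 to 0.31 for Il11ra1. Lifr was below 0 without NC-B (-0.0059), Cntf without NC-B (-0.35) or anti-B (-0.48), and Osmr without the latter (-0.048). The member median was -0.001 and -0.02 without these libraries, with 4 of 8 members above 0. The cause was not tested. With 2 libraries per group and under 60 counts in most libraries, Il6ra, Clcf1, Cntf and Lif have wide intervals, and these data bound no small change in them.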
